A study of Homo sapiens with 4 samples.

Results

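In T47D human breast cancer cells treated with the progestin R5020, 2675 of the 11181 binding sites of the progesterone receptor (PR) lay inside the body of a transcribed gene and were of moderate strength, 23.9% of all sites. They were selected on measured values and on position. Each had a peak score below 150, a midpoint more than 1 kb from the start of any protein-coding transcript, and a place inside the locus of at least 1 gene with an abundance of 1 or more in vehicle-treated cells. The score is the negative log10 of the peak p-value multiplied by 10, and the abundance is FPKM, the fragment number normalised for transcript length and library size, summed over the transcripts of a gene. The 2675 sites fell in 1631 host genes, 15.3% of the 10679 genes that passed the same abundance threshold, and 12 sites lay in 2 host genes at once. All 2675 sites entered every count of sites below, and all 1631 hosts every count of genes.

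The RNA-seq experiment compared cells treated for 3 h with 10 nM R5020 with cells treated for 3 h with ethanol (EtOH), the vehicle, and the PR was immunoprecipitated after 1 h with 10 nM R5020. All cells were T47D, an established line of luminal type that makes PR. All were kept in serum stripped of steroids before harvest, for longer before ChIP than before RNA isolation. Every condition was 1 library of 1 cell line, so no difference below has a replicate check and none carries a p-value. A library of input DNA served the authors as the control for peak calling and was not analysed here.

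The PR is a ligand-activated transcription factor of the steroid receptor family. As a dimer it recognises an imperfect palindrome, the progesterone response element, which androgen and glucocorticoid receptors can also bind. Binding inside introns, far from any promoter, is common for steroid receptors, and a site inside a gene does not by itself mark that gene as the one regulated. In the breast, progestins act on luminal epithelial cells, where they alter proliferation and differentiation.

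The luminal markers *GATA3*, *FOXA1*, *KRT19*, *MUC1*, *EPCAM*, *CDH1*, *ESR1* and *PGR* were all expressed, at FPKM values from 17.2 (*ESR1*) to 608 (*KRT19*) in EtOH. *KRT8* and *KRT18* were listed at 0 in EtOH and at 285 and 174 in R5020. Their EtOH transcripts are marked as failed estimates, so these zeros are no levels. The basal, blood and endothelial markers *KRT5*, *KRT14*, *TP63*, *PTPRC* and *PECAM1* were at 0.315 or below in both libraries and *VIM* and *CD68* at 0.604 or below. *COL1A1*, at 5.12 in EtOH and 3.31 in R5020, and *ACTA2*, at 1.93 and 1.35, were the only markers of other cell types above 1. In bulk RNA a smaller number of cells of a type and less RNA per cell cannot be told apart.

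The sequences that follow show what the receptor's element looked like where a site held one. The element was searched as the letters GNACA and TGTNC separated by 3 bases, where N is any base. The pattern reads the same on both strands. It was present in 68 of the 2675 sites, which lay in 67 host genes, and 13 of those hosts were at least 1.5-fold higher (9) or lower (4) in R5020. Of all expressed genes 6.2% were that much higher and 4.27% that much lower, and of all 1631 hosts 10.5% and 5.33%. The matches of 11 of these 13 are printed with 16 bases to each side, on the plus strand of hg19, from the gene that rose most to the gene that fell most. The capitals mark the match. These sequences were chosen after the expression values had been seen.
SLC25A18, chr22:18051072-18051116: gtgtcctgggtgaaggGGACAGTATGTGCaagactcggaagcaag
TRAF5, chr1:211527609-211527653: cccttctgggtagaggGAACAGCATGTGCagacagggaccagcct
CLMN, chr14:95726242-95726286: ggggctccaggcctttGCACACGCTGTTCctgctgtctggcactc
P4HA2, chr5:131551115-131551159: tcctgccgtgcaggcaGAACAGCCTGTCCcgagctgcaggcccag
NIPAL3, chr1:24744218-24744262: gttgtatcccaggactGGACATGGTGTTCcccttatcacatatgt
ULK2, chr17:19703175-19703219: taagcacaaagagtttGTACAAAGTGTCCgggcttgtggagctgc
SHROOM3, chr4:77532940-77532984: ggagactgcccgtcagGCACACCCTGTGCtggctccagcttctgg
BCL6, chr3:187457303-187457347: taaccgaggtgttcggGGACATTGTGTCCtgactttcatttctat
KCNK2, chr1:215338096-215338140: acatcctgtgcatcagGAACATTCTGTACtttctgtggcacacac
HOXC4, chr12:54440621-54440665: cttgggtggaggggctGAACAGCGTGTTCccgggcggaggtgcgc
EFNA1, chr1:155103904-155103948: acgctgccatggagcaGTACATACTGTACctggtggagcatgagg

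All but 1 of these 11 sites lay in introns, and that of *EFNA1*, the gene of a membrane-bound ephrin ligand, lay in a coding exon. Another host of the element was *GRHL2*, a transcription factor of epithelial cells, whose match lay in its intron 1 in a site with a score of 75.7 and is not printed.

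The element was also searched in its stricter form, AGAACA and TGTTCT separated by 3 bases, with at most 1 of the 12 letters different. Only 15 of the 2675 sites held it. The 5 with the highest peak scores and the site of *CLMN*, whose host rose, are printed with 15 bases to each side and the match in capitals.
CRAT, chr9:131870353-131870397: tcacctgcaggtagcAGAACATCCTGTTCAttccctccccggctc
ZNF767, chr7:149244452-149244496: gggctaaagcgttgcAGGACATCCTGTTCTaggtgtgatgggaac
LSS, chr21:47634156-47634200: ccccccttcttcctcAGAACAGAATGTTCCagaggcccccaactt
BCR, chr22:23657666-23657710: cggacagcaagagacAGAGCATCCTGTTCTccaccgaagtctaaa
TGFA, chr2:70716512-70716556: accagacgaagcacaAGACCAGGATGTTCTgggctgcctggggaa
CLMN, chr14:95764584-95764628: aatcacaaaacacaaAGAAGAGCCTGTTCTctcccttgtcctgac

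Of the 15 hosts, 3, namely *CLMN*, *TGFA* and *PLEKHA6*, were at least 1.5-fold higher in R5020, and none was at least 1.5-fold lower. With 15 hosts these counts say nothing of such hosts as a group. *TGFA*, a ligand of the epidermal growth factor receptor, had an FPKM of 1.28 with EtOH and of 4.66 with R5020. *CLMN*, which encodes calmin, an actin-binding membrane protein, was at 4.02 and 11.9, and it held a match of each kind in different sites. *LSS*, an enzyme of cholesterol synthesis, and *CRAT*, which moves acetyl groups onto carnitine, stayed within 1.5-fold, *LSS* at 19.8 and 16.5 and *CRAT* at 9.13 and 9.48.

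The best sites of *FKBP5* and *RXRA* differed from the strict form at 2 letters. *FKBP5* encodes a co-chaperone of steroid receptors and is a familiar progestin target, and *RXRA* encodes a dimer partner of many nuclear receptors.
FKBP5, chr6:35690297-35690341: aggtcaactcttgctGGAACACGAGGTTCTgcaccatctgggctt
RXRA, chr9:137267014-137267058: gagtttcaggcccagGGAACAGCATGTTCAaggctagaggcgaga

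Most sites held no such match. The host that rose most was *NET1*, a guanine nucleotide exchange factor for small GTPases, and its 232-base site is printed whole as an example. The capitals mark its only copy of the hexamer TGTTCT. Its closest stretch differed from the strict palindrome at 4 letters, and 34.5% of its bases were G or C.
NET1, chr10:5495530-5495761: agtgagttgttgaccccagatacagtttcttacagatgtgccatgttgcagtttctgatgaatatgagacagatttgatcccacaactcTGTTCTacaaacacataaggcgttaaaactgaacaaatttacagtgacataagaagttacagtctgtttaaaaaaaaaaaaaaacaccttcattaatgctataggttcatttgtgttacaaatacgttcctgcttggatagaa

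The element was more frequent in the sites than beside them. It was present in 2.54% of the 2675 sites (95% Wilson interval 2.01 to 3.21), against 0.972% (0.664 to 1.42) and 0.748% (0.485 to 1.15) of windows of the same length 5 kb below and 5 kb above each site. These intervals, like all intervals on shares here, cover counting error only and treat sites or genes as independent. Of the sites with a score of 150 or more anywhere in the genome, 10.1% (7.63 to 13.2) held the element, and of the promoter sites 1.25% (0.835 to 1.87). Among the sites inside expressed genes the share was 2.20% at scores of 50 to 60, 1.84% at 60 to 80, 3.01% at 80 to 100 and 4.52% (2.80 to 7.22) at 100 to 150. In each class it was above the shares of both sets of windows, but not always beyond the intervals. At 60 to 80 the windows below held 1.49% and those above 0.612%, and both intervals overlap that of the sites. At 50 to 60 and 80 to 100 only the interval of the windows above overlaps, and at 100 to 150 only that of the windows below. The share was 1.79% (1.31 to 2.44) in sites inside silent genes and 2.30% (1.88 to 2.81) in sites outside any gene locus. Both intervals overlap that of the sites inside expressed genes.

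**Figure D1:**
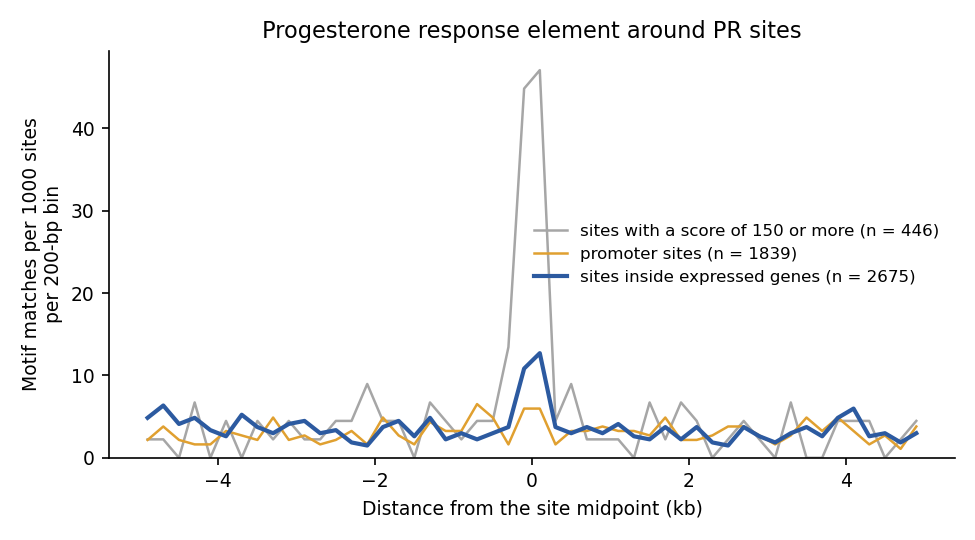
Matches to the progesterone response element per 1000 sites in each 200-bp bin (vertical axis) against distance from the site midpoint in kb (horizontal axis), for the sites inside expressed genes and for 2 other groups of sites. In the central 400 bp the sites inside expressed genes averaged 11.8 matches per 1000 sites and bin, against 3.38 beyond 1 kb, and sites with a score of 150 or more rise far higher.

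The matches were concentrated near the site midpoints, as the plot of matches by distance shows. The highest bin beyond 1 kb had 6.36 matches per 1000 sites, below the central mean of 11.8. The single hexamer AGAACA, 1 arm of the strict palindrome, searched on both strands, was as frequent beside the sites as in them, at 26.4% of sites against 26.8% of both sets of windows. The core GGGCGG, the GC box that Sp factors bind, searched on both strands, was in 25.4% of sites (23.8 to 27.1) and in 20.1% and 17.7% of windows. The letters AGATAA, which GATA factors bind, were in 11.1% of sites (9.93 to 12.3) and in 16% and 17.8% of windows. For TGTTTAC, bound by FOXA factors, the shares were 4.30%, 5.16% and 4.79%, and for TGANTCA, bound by AP-1, 11.6%, 10.4% and 11.3%, with overlapping intervals for both. The ETS letters CCGGAAG were in 4.11% of sites (3.42 to 4.93) and in 2.73% and 2.54% of windows. For the GC box, GATA and ETS letters the direction was the same in sites inside silent genes and in sites outside any gene locus. The GATA letters were in 12.2% of sites inside silent genes, against 19.7% and 19.8% of their windows. The sites inside expressed genes also differed in base composition, with a median of 56.0% G and C against 50.8% and 50.6% in the windows. The part of this in the motif shares was not tested. A match describes letters only and is no evidence of a bound factor.

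The sites lay mainly in introns. By the GENCODE annotation of the same assembly, 2055 of 2675 midpoints (76.8%, interval 75.2 to 78.4) were in introns of protein-coding genes, 274 in coding exons, 142 in UTRs, 181 in exons of noncoding transcripts, 22 in introns of noncoding genes and 1 outside the annotated genes. Coding exons held 10.2% of the sites (9.15 to 11.4) but 4.79% and 5.01% of the points 5 kb below and above. The share in coding exons was 11.2% (9.91 to 12.6) for sites inside silent genes and 6.28% (4.38 to 8.92) for sites with a score of 150 or more. Of the 2014 sites in introns of a canonical transcript, 27.6% (25.6 to 29.5) were in the first intron, which made up 27.4% of the intron sequence of these genes on average.

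Along the hosts, the shares of sites were larger toward the 3′ end. For the 2421 sites whose host matched the annotation, position was taken over the joint extent of all annotated transcripts of the host. The 5 equal parts of this extent from start to end held 16.1%, 19.2%, 18.3%, 21.4% and 24.9% of the sites. The rule removed sites close to starts, which lowers the count in the part nearest the start. It therefore also raises the shares of the other parts, and how much of the trend it accounts for was not tested. The distance to the host start was taken to the nearest start among its protein-coding transcripts, or among all where none was protein-coding. The median was 11.6 kb, with the middle 50% of sites between 4.39 and 32.0 kb and the farthest at 741 kb. A further 527 sites (19.7%) had some other annotated transcript start, noncoding ones included, within 1 kb.

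Peak scores ran from 50, the lowest score in the deposited list, to 149.69, with a median of 73.8. The median of all 11181 sites was 74.5 and the highest of all was 1965. Only 354 of the sites inside expressed genes (13.2%) scored 100 or more. The width had a median of 457 bp, from 177 to 1152. Just inside the score threshold were the sites in *ABCA2* (149.69), *SLC2A10* (148.33) and *SLC25A18* (147.67), and just outside were those in *MYOF* (150.89), *BTBD9* (151.4) and *PPIB* (152.19). At the abundance threshold *TUBB2A*, at 1.0006, was the lowest host and *ZFPM1*, at 0.998, the highest gene left out. At the distance threshold *CYC1* had a site 1008 bp from a start and was kept, and *MIB2* a site at 1000 bp and was not.

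Most hosts held few sites. A total of 1136 hosts (69.7%) had 1 site, 273 had 2 and 58 had 5 or more, which together held 456 sites. Another such site lay within 10 kb of 966 sites (36.1%). The hosts were longer than other expressed genes, with a median extent of 53.1 kb against 24.0 kb, and were expressed at a similar level, with a median FPKM in EtOH of 5.09 against 5.33.

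*SHANK2*, a scaffold protein of excitatory synapses, had the most sites, 26 along 622 kb, with scores from 54.8 to 107. Its FPKM was 9.13 in EtOH and 9.24 in R5020. *KIAA0182* had 24 sites in 64.8 kb, or 370 per Mb, against 41.8 per Mb in *SHANK2*, and its neighbouring sites were a median of 1.78 kb apart. Its FPKM was 46.4 in EtOH and 64.5 in R5020, within 1.5-fold. *RXRA* had 17 sites in 114 kb and stood at 16.6 (EtOH) and 10.99 (R5020) FPKM, which on the log2(FPKM + 1) scale is a change of -0.56, just within 1.5-fold. *ZMIZ1*, a coregulator of the androgen receptor, had 15 sites and stood at 9.03 in EtOH and 4.56 in R5020 (-0.85). *CBFA2T3*, a transcriptional corepressor, had 13 and stood at 7.06 and 14.0 (0.90). The 5 hosts richest in sites thus included 1 higher gene, 1 lower gene and 3 within the threshold. The median site had 63.6% G and C in *KIAA0182*, 64.0% in *RXRA* and 63.1% in *CBFA2T3*, and 56.4% in *SHANK2* and 57.7% in *ZMIZ1*, close to the 56.0% of all these sites.

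**Figure D2:**
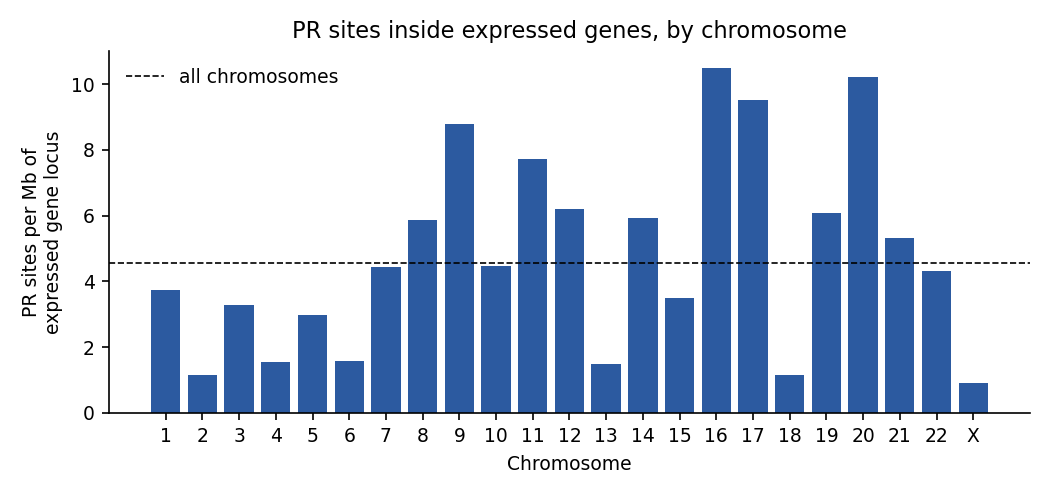
Sites inside expressed genes per Mb of expressed gene locus (vertical axis) on each chromosome (horizontal axis), with the value for all chromosomes as a dashed line at 4.57. Chromosomes 16, 20 and 17 stand above 9 sites per Mb, and chromosomes X, 18 and 2 stand below 1.2.

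The density of sites was uneven between chromosomes. Over all expressed loci it was 4.57 sites per Mb. It was 10.5 on chromosome 16, 10.2 on chromosome 20, 9.53 on chromosome 17, 8.79 on chromosome 9 and 7.73 on chromosome 11. It was 0.915 on chromosome X, 1.16 on both chromosomes 2 and 18, 1.48 on chromosome 13 and 1.54 on chromosome 4. The PR sites of the whole series were also unevenly spread. Their counts, not divided by length, were 304 on chromosome 2, 87 on X and 74 on 18, against 703 on 16, 938 on 17 and 612 on 20. The number of copies of each chromosome in these cells was not measured here, and its part in the density was not tested.

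Of the 1631 hosts, 171 (10.5%) were at least 1.5-fold higher in R5020 than in EtOH and 87 (5.33%) at least 1.5-fold lower, against 6.2% and 4.27% of all 10679 expressed genes. Folds are on the log2(FPKM + 1) scale throughout, so that changes at low FPKM appear smaller than they are. Of the 87 lower hosts, 5 were listed at 0 in R5020. The remaining 1373 hosts stayed within 1.5-fold, and the median log2 fold change of the hosts was -0.02, against -0.0049 over all expressed genes. Both shares were thus above the background at 1.5-fold, that of the higher genes by more. Without the genes listed at 0 in R5020 the lower share was 5.04% of hosts against 3.62% of expressed genes. At 2-fold the higher share was 5.15% of hosts against 2.41% of expressed genes. The lower share at 2-fold was 1.04% of hosts against 1.35% of expressed genes. Every gene listed at 0 in R5020 counts as lower there, and these were 0.307% of hosts and 0.674% of expressed genes. The 2-fold shares without them were not computed, so no loss of the small excess of lower hosts is read from 2-fold. The hosts were chosen on their EtOH value and not on R5020, and the background genes passed the same EtOH threshold. In reads, as recovered from the deposited coverage, a host had a median of 1809 in EtOH, and only 4 hosts had fewer than 100. Measured by their share of all coverage in place of FPKM, 163 of the 171 higher hosts and 81 of the 82 lower hosts not at 0 were past 1.5-fold in the same direction.

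**Figure D3:**
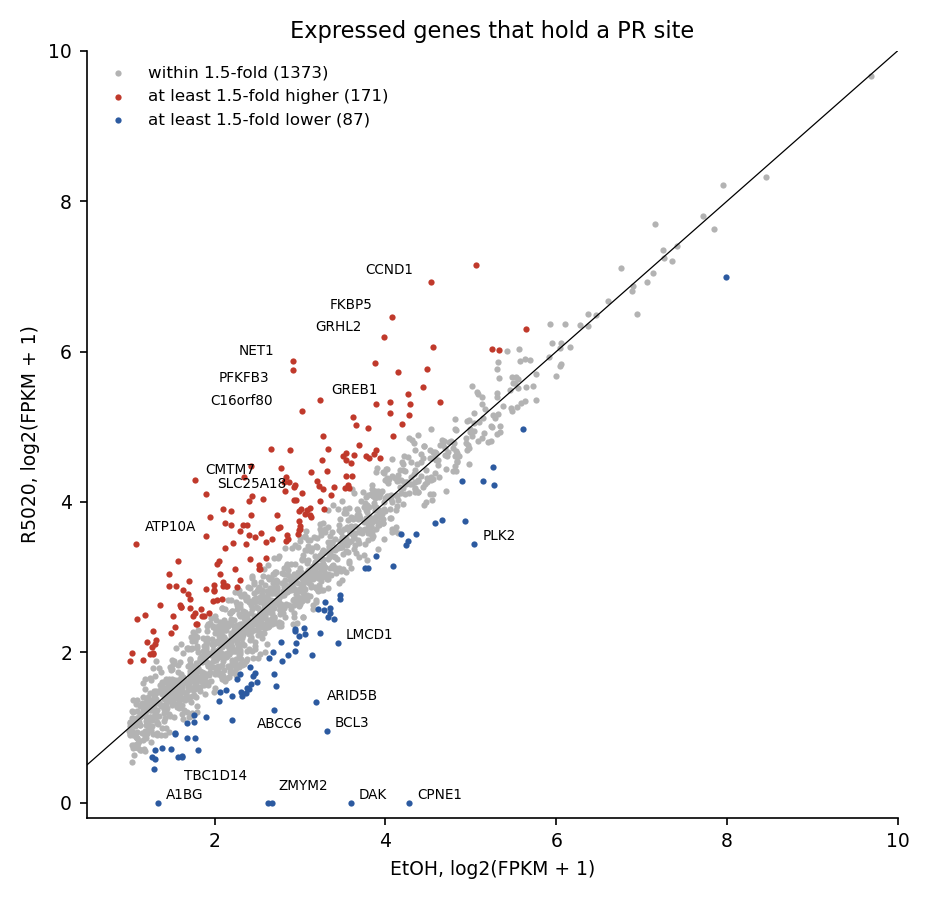
Expression of the 1631 host genes as log2(FPKM + 1) in EtOH (horizontal axis) and R5020 (vertical axis), 1 point per gene and 1 library per axis, with the 10 largest rises and falls named and the line of equal values. The 171 higher hosts lie above the line and the 87 lower ones below it, with 5 hosts listed at 0 in R5020 along the bottom.

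The share of higher genes depended on which other sites a gene had. Promoter sites, all scoring below 150, were counted in the locus widened by 1 kb. Sites of 150 or more were counted only inside the locus, so a gene with no site can have one just outside. The share of higher genes was 4.96% (4.51 to 5.46) among the 8161 expressed genes with no PR site counted in this way. Among the 1244 hosts with neither a promoter site nor a site scoring 150 or more it was 9.57% (8.05 to 11.3). With a promoter site beside the inner one it was 10.1% (7.18 to 13.9) of 308 hosts, and 8.05% (6.37 to 10.1) of 807 genes with a promoter site alone. Hosts that also held a site of 150 or more were higher in 21 of 79 cases (26.6%, 18.1 to 37.2). The share was almost equal among genes with such a strong site and no moderate one, 21 of 80 (26.2%, 17.9 to 36.8). The share of lower genes ranged from 2.50% to 6.82% over these groups. It was 4.03% (3.63 to 4.48) in genes with no site and 5.14% (4.05 to 6.52) in hosts with moderate inner sites alone, with overlapping intervals. Genes listed at 0 in R5020 are counted in these shares. Of the lower genes, 263 of the 329 with no site and 59 of the 64 such hosts had a value above 0. Intervals without the zeros were not computed, so the overlap is not read as equal shares.

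**Figure D4:**
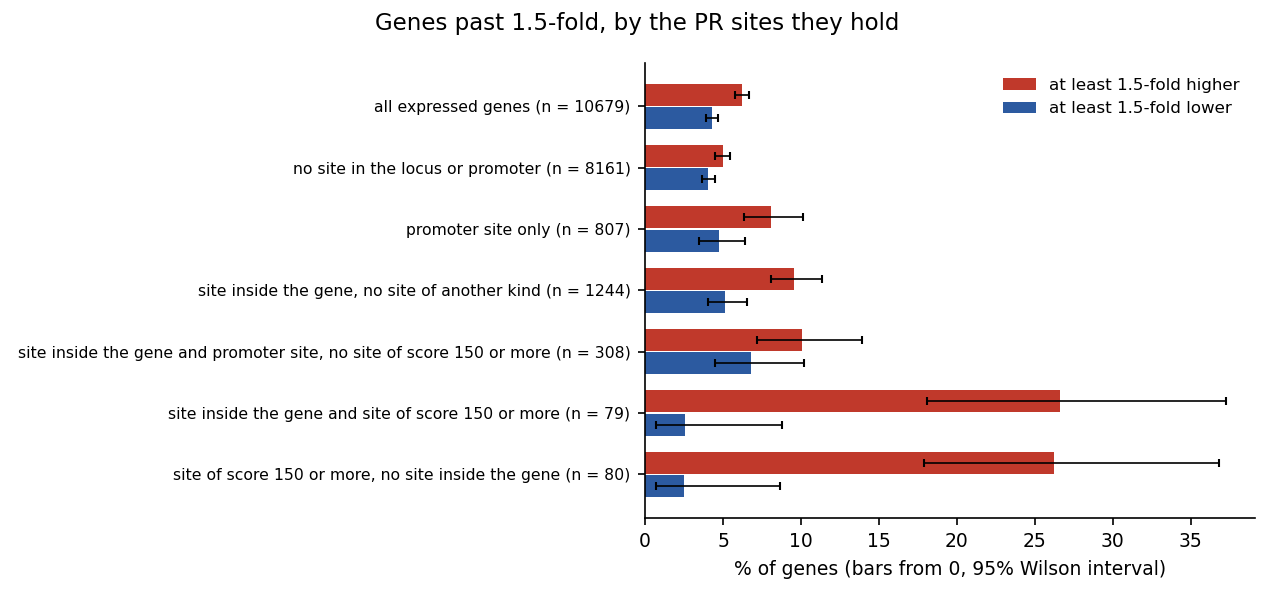
Share of expressed genes at least 1.5-fold higher (red) or lower (blue) in R5020, in percent (horizontal axis), for all expressed genes and for 6 groups by the PR sites they hold (vertical axis), with 95% Wilson intervals. The groups with a site of score 150 or more stand near 26% higher, the hosts of moderate sites alone at 9.57% and the genes with no site at 4.96%.

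Host length moved with these shares, and its part in them was not tested. The shares by class of length that follow count all 1631 hosts, those with promoter sites or sites of 150 or more included. In the shortest class of 4, up to 10.6 kb, 5.95% (3.35 to 10.3) of 185 hosts and 4.06% (3.31 to 4.96) of 2219 genes with no site were higher. In the class up to 27.0 kb the shares were 5.94% (3.79 to 9.20) and 4.02% (3.27 to 4.94), and up to 63.2 kb they were 9.05% (6.66 to 12.2) and 4.59% (3.77 to 5.59). In the longest class 14.4% (12.01 to 17.1) of 723 hosts and 7.68% (6.52 to 9.02) of 1758 genes with no site were higher. In this longest class the hosts were still the longer genes, with a median extent of 135 kb against 107 kb. The intervals overlap in the 2 shorter classes and are apart in the 2 longer ones. The lower shares of hosts and of genes with no site were 9.73% (6.24 to 14.9) and 9.10% (7.98 to 10.4) in the shortest class. From 10.6 to 27.0 kb they were 8.25% (5.65 to 11.9) and 3.04% (2.39 to 3.86). From 27.0 to 63.2 kb they were 3.81% (2.36 to 6.10) and 1.32% (0.908 to 1.91). In the longest class they were 3.87% (2.69 to 5.54) and 1.99% (1.43 to 2.76). The intervals of the lower shares overlap in the shortest and longest classes and are apart in the others. Genes listed at 0 in R5020 are counted as lower here too. In the shortest class 153 of the 202 lower genes with no site and 17 of the 18 lower hosts had a value above 0.

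**Figure D5:**
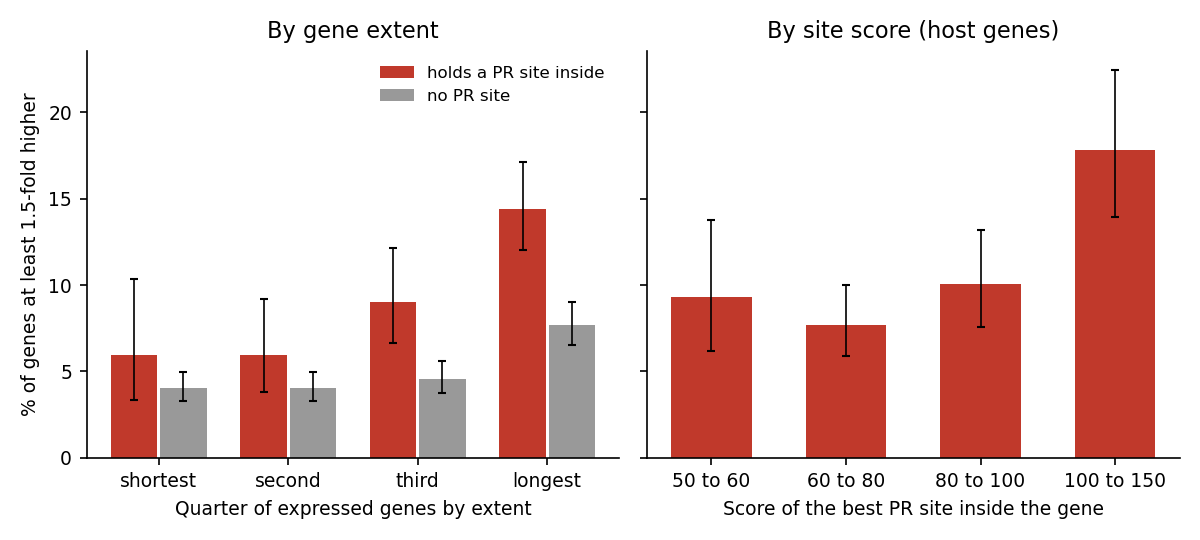
Share of genes at least 1.5-fold higher in R5020, in percent (vertical axes), for hosts and for genes with no PR site in 4 classes of gene extent (left), and for hosts by the score of their best site (right), with 95% Wilson intervals. Hosts stand above genes with no site in each length class, and the highest share by score is 17.8%, at 100 to 150.

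Score and number of sites were related to the share unequally. Hosts whose best site scored 100 to 150 were higher in 17.8% of 309 cases (13.9 to 22.5). Lower scores gave 9.29% of 226 hosts (50 to 60), 7.72% of 648 (60 to 80) and 10.0% of 448 (80 to 100), with overlapping intervals. Without promoter sites and sites of 150 or more, the share at 100 to 150 was 16.3% of 221 hosts (12.005 to 21.7). Hosts with 1 site were higher in 9.33% (7.77 to 11.2), those with 2 in 13.2% (9.68 to 17.7), those with 3 or 4 in 13.4% (9.03 to 19.5) and those with 5 or more in 12.1% (5.97 to 22.9). By distance of the nearest site from the host start the share was 10.1% at 1 to 5 kb, 9.72% at 5 to 20 kb, 12.7% at 20 to 50 kb and 12.1% beyond 50 kb, all with overlapping intervals. Median extent differed over these classes as well. It was 67.1 kb at scores of 100 to 150, against 46.3, 47.6 and 55.1 kb at the lower scores. It ran from 43.5 kb with 1 site to 113 kb with 5 or more, and from 30.5 kb at 1 to 5 kb to 173 kb beyond 50 kb. The part of extent in these shares was not tested. The 67 hosts of a site with the response element were higher in 13.4% (7.23 to 23.6) and the other 1564 in 10.4% (8.94 to 11.97), a difference that these numbers of hosts cannot resolve.

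The 10 hosts that rose most had FPKM values from 1.12 to 22.2 in EtOH and from 9.90 to 120 in R5020. *NET1* stood at an FPKM of 6.53 with EtOH and of 57.7 with R5020 (log2 fold change 2.96), with 2079 and 17378 reads. Its site scored 57.7 and lay in intron 8, and the gene also had a promoter site. By transcript, the short form NM_005863 was at 2.55 and 57.7, and the long form NM_001047160 was at 3.99 in EtOH and listed at 0 in R5020. Some zeros in these data are marked as failed estimates, and this one is not. With 1 library per condition, no change of the long form is read from it. *PFKFB3*, a regulatory enzyme of glycolysis, had 6 sites with a best score of 86.0, in intron 3, and rose from 6.57 to 53.1 (2.84).

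*CMTM7*, a MARVEL-domain membrane protein, went from 2.40 to 18.5 (2.52) with 1 site in intron 1, 46.6 kb from its start. *CCND1*, the cyclin that drives entry into the cell cycle, went from 22.2 to 120 (2.38) with 1 site scoring 67.9, in intron 4. *FKBP5* went from 15.9 to 86.6 (2.38) and held 2 sites of 150 or more beside the printed one, which scored 104. That printed site lay only within the locus of the longest transcript, NM_001145775, listed at 0 in both libraries, and upstream of NM_004117, which went from 15.9 to 79.3.

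*ATP10A*, a phospholipid flippase, went from 1.12 to 9.90 (2.36) and had 2 sites, the better at a score of 137 in intron 1. *GRHL2* went from 14.8 to 72.3 (2.21) and had 3 sites, the best at 76.0 in intron 8. *SLC25A18*, a mitochondrial glutamate carrier, went from 2.73 to 16.2 (2.21), and its site scored 147.67, the third highest below 150. *C16orf80* went from 7.14 to 35.9 (2.18), and *GREB1*, a cofactor of the estrogen receptor, from 8.44 to 39.9 (2.12), each with 1 site in an intron. Of these 10 hosts, only *FKBP5* held a site of 150 or more and only *NET1* a promoter site. The best sites of the 10 scored from 57.7 to 147.67, and only that of *SLC25A18* had the response element, while *GRHL2* had it in another of its sites.

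Among the 10 largest falls, 5 hosts were listed at 0 in R5020, and no fold is given for them. *CPNE1* was at 18.3 in EtOH, *DAK* at 11.1, *ZMYM2* at 5.39, *TBC1D14* at 5.15 and *A1BG* at 1.52. Every transcript of *ZMYM2* and *TBC1D14* is marked in R5020 as a failed estimate, so their zeros are no levels. *CPNE1*, *DAK* and *A1BG* carry no such mark. Over all expressed genes 72 (0.674%) were listed at 0 in R5020.

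*BCL3*, a nuclear regulator of NF-κB, had the largest fall among hosts with a value in both libraries, from 8.92 to 0.935 (-2.36), with 1 site scoring 64.5 in intron 2 and a promoter site. *ARID5B*, a DNA-binding cofactor of a histone demethylase, went from 8.14 to 1.54 (-1.85), and its site in intron 3 differed from the strict palindrome at 2 letters. *PLK2*, a polo-like kinase, went from 31.9 to 9.85 (-1.60), *ABCC6*, a membrane transporter, from 5.46 to 1.36 (-1.45), and *LMCD1*, a LIM-domain protein, from 9.86 to 3.36 (-1.32).

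The next falls were those of the homeobox gene *HOXB2*, from 29.6 to 12.4 (-1.19), *ATF7*, from 7.84 to 2.91 (-1.18), the ephrin receptor *EPHB3*, from 5.56 to 1.92 (-1.17), *PAX9*, from 3.604 to 1.14 (-1.11), and *SMAD6*, an inhibitor of BMP signalling, from 2.49 to 0.625 (-1.101). *ATF7* had 2224 reads in EtOH and 1760 in R5020, a smaller fall than its FPKM gives. *EPHB3* was the only host among these falls with a site of 150 or more. None of the best sites of these 15 hosts had the response element.

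The 13 hosts of the response element that were past 1.5-fold included 9 higher and 4 lower genes. Beside *GRHL2* and *SLC25A18*, the higher ones were *TRAF5*, a TNF receptor adaptor, from 2.85 to 12.9 (1.86), *CLMN* (1.36), *P4HA2*, a collagen prolyl hydroxylase, from 4.22 to 11.998 (1.32), *NIPAL3* (0.93), the autophagy kinase *ULK2* (0.87), *SHROOM3*, which organises apical actin (0.80), and *BCL6*, a transcriptional repressor, from 10.5 to 17.3 (0.66). Among the lower ones were *EFNA1*, from 9.52 to 4.44 (-0.95), *HOXC4* (-0.83) and the potassium channel *KCNK2*, from 48.0 to 30.5 (-0.64). The scores of these matching sites ran from 54.5 in *ULK2* to 147.67 in *SLC25A18*.

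Genes of the small GTPase cycle, exchange factors (GEFs) and activating proteins (GAPs) among them, made up the list with the most hosts. It was put together by the study from changes in these same libraries, so its directions are no independent evidence. Of its 49 expressed genes, 22 (44.9%) held a site, against 15.3% of all expressed genes. The shares of the 7 other lists below ran from 25% to 45.2%, so that this share does not set the list apart. Of the 22, 14 were higher and 5 lower and the median change was 0.66 (log2), and of all 49, 33 were higher and 10 lower, with a median of 0.74. The exchange factor *ARHGEF26* went from 4.38 to 21.4 (2.06) with a site scoring 114, and the GAPs *SRGAP1* and *ARHGAP17* from 3.36 to 12.2 (1.60) and from 4.38 to 13.2 (1.40). *AKAP13* (1.15), the endosomal GTPase *RAB4A* (1.13), *RASGEF1A* (1.06), *STARD13* (0.9997), *ASAP2* (0.83) and *CYTH1* (0.79) were also higher. The lower hosts were *RND1*, itself a small GTPase, from 2.07 to 0.532 (-1.001), *SIPA1* (-0.77), *ARHGEF2* (-0.64), *ARHGAP40* (-0.63) and *SRGAP3* (-0.59).

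Of 23 expressed transcription factors of luminal cells, 6 (26.1%) were hosts, of which 3 were lower and *GRHL2* alone higher. *GATA3*, a determinant of luminal identity, had 1 site and 2 promoter sites and went from 253 to 126 (-0.998). *SPDEF* went from 22.9 to 12.2 (-0.86), and *ESR1*, the estrogen receptor, from 17.2 to 10.9 (-0.61) with a site scoring 107. *TFAP2C* (-0.48) was within the threshold. Over all 23 expressed members 5 were higher, 8 lower and the others within the threshold.

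Of 20 expressed steroid receptor coregulators, 5 (25%) were hosts, and together they held 16 sites. *NCOA3* was at 0.48, and *EP300*, *CREBBP* and *TBL1XR1* lay between -0.06 and 0.02. Of the 12 expressed targets that corticoids and progestins are known to share, 4 (33.3%) were hosts. *FKBP5* and *BCL6* were higher, *KLF9* was at 0.38 and *CRISPLD2* at -0.45, whereas 8 of the 12 were higher over the whole list.

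Growth factor receptor signalling had 9 hosts (36%) among 25 expressed genes, of which 3 were higher and none lower, against 8 higher and 1 lower over the list. *EGFR*, which had a site scoring 141 and 1 of 150 or more, went from 2.25 to 6.69 (1.24), *IGF1R*, with 4 sites, from 6.64 to 15.3 (1.098), and the adaptor *GRB2* from 18.4 to 34.7 (0.88). *ERBB2* went from 25.1 to 16.6 (-0.56), just within the threshold, and the prolactin receptor *PRLR* was at 152 and 162.

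Cell junction and actin genes had 14 hosts (45.2%) among 31 expressed, with *KANK1* (1.41) and *LIMA1* (0.84) higher and cingulin, *CGN*, lower (-0.68), and 6 were higher and 1 lower over the list. Of the chromatin regulators 11 of 27 expressed (40.7%) were hosts, and the histone demethylase *KDM4B*, from 6.31 to 18.3 (1.40), and *JARID2* (0.75) were the higher ones, of the hosts and of the whole list. *EHMT1*, a histone methyltransferase with 6 sites, and *MLL2*, with 4, changed by 0.12 and -0.10. Of the clock genes 4 of 13 expressed (30.8%) were hosts, and *CRY2*, a repressor of the clock, went from 2.99 to 6.03 (0.82), the only host past the threshold, with 2 higher and 1 lower over the list.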

How the data were processed

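The RNA-seq libraries were deposited by the authors as FPKM values and a coverage (signal) for 41138 RefSeq transcripts, made with TopHat and Cufflinks on hg19. The PR ChIP-seq library was aligned by the authors with Bowtie 1.1.2, peaks were called with MACS against input DNA, and the deposited sites carry a score, the negative log10 of the p-value multiplied by 10. FPKM was summed by gene symbol. Coverage multiplied by length and divided by 50 nt, the read length, corresponded to 35151493 reads in EtOH and 36203604 in R5020. The deposited FPKM intervals were not used, since 35.4% of transcripts with FPKM of 1 or more lay outside their own.

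Sites were classed by midpoint, with starts of transcripts of type protein_coding from GENCODE 44 lifted to GRCh37, and the annotation and sequence of the same assembly. Every deposited transcript lay inside the chromosome bounds of this assembly. Of the 1631 hosts, 1480 matched the annotation by symbol.

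The change of a gene was log2((R5020 + 1)/(EtOH + 1)), called at 1.5-fold. With 1 library per condition no test was run. The calls, site classes and motif search were tested on simulated data, with large planted fold changes, little noise and exact palindromes in random sequence. That test does not cover calls near 1.5-fold or genes listed at 0. The genes named are the 10 largest rises and falls among hosts, the next falls with a value above 0, the 5 hosts with most sites and hosts in the gene lists, with others said to be chosen after their values were seen. The members and lists were chosen with earlier results of these data known. A few members of the lists are not reported here. Alternatives, and their effect, are in the closing section. Python 3.11.15, pandas 2.3.3, numpy 2.4.6, scipy 1.17.1, pysam 0.24.0 and matplotlib 3.10.9 were used.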

Additional observations from a re-analysis of the deposited data

How the results depend on the processing

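Of 54 values recomputed under another setting, 42 stayed within 1.5 times the reported count or within the interval of the reported share or median, and 12 did not. With scores of 70 or more there were 1509 sites, 1075 host genes and 53 lower hosts. A pseudocount of 0.1 gave 150 lower hosts (9.20% against 7.37% of expressed genes) and no pseudocount 154 (9.47% against 7.29%), and 2-fold gave 84 higher and 17 lower hosts. The share of sites with the response element was 1.35% in the central 200 bases, 0.561% for the strict palindrome with at most 1 mismatch and 4.19% with at most 2. The share in introns was 79.98% over 5 kb from a start and 81.0% with the starts of all transcripts of protein-coding genes, which left 2262 sites. At 2-fold the higher share was 5.15% of hosts against 2.41% of expressed genes and the lower share 1.04% against 1.35%. Genes listed at 0 in R5020 all count as lower at 2-fold, and the shares without them were not computed. No loss of the small excess of lower hosts is therefore read from 2-fold. The starts of all transcripts, the removal of genes listed at 0, the log ratio without a pseudocount and the palindrome with 2 mismatches were chosen after the data had been seen. With 1 library per condition no replicate could be left out and the spread between cultures is unknown. No paired analysis was possible because each condition had 1 library and the values come from no test. The deposited sites begin at a score of 50, so weaker binding was not seen.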
